A study of Mus musculus with 12 samples.

Results

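The 3 wild-type libraries of the study are described here, out of 12 mouse RNA-seq libraries in 4 groups of 3. They were chosen by their labels alone, and every gene of the table was ranked by its mean level in them. A level is given as TPM, a measure of transcripts corrected for gene length: the read count of a gene divided by the gene length in the count table, then scaled so that all genes of a library sum to 1000000. Of 49671 genes, 22508 had a count in at least 1 of the 3 libraries, and 13818 had a mean of at least 1 TPM.

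The labels give these samples as pools of embryos at embryonic day 9.5, of wild-type genotype, with embryo as the tissue. No other allele, treatment or agent is named for them, and no strain is given. The other groups of the study lack Lyl1, Scl (the gene Tal1) or both, and no comparison between genotypes was made. Total RNA was extracted with Trizol and a column kit, and stranded libraries were made from messenger RNA. The labels call the 3 libraries biological replicates and say that embryos were pooled, but nothing says that they came from separate litters or how many embryos each pool held. The spread between them may therefore be partly technical.

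Depth was similar. The libraries held 26355550, 25693102 and 28694888 counts, and 19852, 18758 and 19839 genes with a count. Across the 13818 genes at 1 TPM or more, log2 levels of libraries 1 and 2 had a Pearson correlation of 0.969, against 0.954 for libraries 1 and 3 and 0.957 for 2 and 3. These correlations run over genes of whole libraries that share gene lengths and the counting procedure, and genes are not independent replicates. Library 3 was thus a little further from both others than these were from each other. The reads carry no molecular identifiers, so the counting errors and detection limits below cover counting error only. A count of 0 allows up to 3 counts, which is 0.114, 0.117 and 0.104 CPM in the 3 libraries (CPM, counts scaled to a library total of 1000000).

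Megakaryocytes are the large bone marrow and fetal liver cells that shed platelets, the cell fragments that stop bleeding. They build a store of chemokines and clotting proteins in alpha granules, a fibrinogen receptor made of the integrin chains alpha IIb (Itga2b) and beta 3 (Itgb3), a receptor for von Willebrand factor, and a microtubule coil that shapes the platelet. In the mouse embryo the blood at this stage is dominated by primitive red cells from the yolk sac, which carry embryonic globins, while embryonic megakaryocytes and macrophages arise in the same sites.

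The most abundant messages of these libraries were those of megakaryocytes and platelets. The gene at rank 1 was Ppbp, a platelet chemokine, with 50553 ± 5162 TPM (mean and SD, n = 3 libraries, as throughout). All 30 genes of a list of megakaryocyte and platelet genes lay above 1 TPM, and the lowest of them stood at 156.5 TPM. Their sum was 128625 ± 7899 TPM, or 12.9% of all TPM. This content went against the tissue label. Of 83 genes in 7 lists of embryo tissues (heart muscle, neural tissue, somite and tail bud, yolk sac endoderm and liver, trophoblast, epithelium, and pluripotent and germ cells), 46 had no count in any of the 3 libraries and 9 reached 1 TPM. The 83 genes together summed to 39.0, 39.3 and 36.0 TPM. The libraries are therefore called the wild-type libraries below, and not whole-embryo libraries.

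Pf4 and Ppbp are neighbours on chromosome 5 and encode platelet factor 4 and platelet basic protein, both chemokines of alpha granules. F2rl2, Gp1ba and Gp5 encode surface receptors of platelets: a cofactor for thrombin signalling and 2 chains of the receptor complex for von Willebrand factor. The 250 bases before the start of these 5 genes are printed because Ppbp and Pf4 were the most abundant megakaryocyte messages, and because the 3 receptor genes were the most abundant of the list with a GATA word in this window. GATA1 is a main regulator of megakaryocyte genes and binds words of this kind. The sequences are from RefSeq on GRCm38.p6, the build of the count table, and run 5′ to 3′ on the strand of the gene. Capitals mark the words that were searched: AGATAA or TGATAA on either strand (TTATCT or TTATCA on the opposite strand), the ETS words CAGGAAG or CCGGAAG on either strand (CTTCCTG or CTTCCGG on the opposite strand), and TATAAA on the strand of the gene. None of these words contains another.
Ppbp, chr5:90768268-90768517, plus strand: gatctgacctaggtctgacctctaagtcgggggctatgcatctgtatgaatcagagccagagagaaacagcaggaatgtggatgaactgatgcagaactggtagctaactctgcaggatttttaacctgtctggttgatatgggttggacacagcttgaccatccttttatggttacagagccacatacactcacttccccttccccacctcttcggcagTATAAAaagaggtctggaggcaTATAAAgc
Pf4, chr5:90772185-90772434, plus strand: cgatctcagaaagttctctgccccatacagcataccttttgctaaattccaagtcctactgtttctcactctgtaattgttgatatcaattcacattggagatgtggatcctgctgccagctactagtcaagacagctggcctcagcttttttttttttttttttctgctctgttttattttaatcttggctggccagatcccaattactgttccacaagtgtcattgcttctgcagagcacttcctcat
F2rl2, chr13:95696670-95696919, plus strand: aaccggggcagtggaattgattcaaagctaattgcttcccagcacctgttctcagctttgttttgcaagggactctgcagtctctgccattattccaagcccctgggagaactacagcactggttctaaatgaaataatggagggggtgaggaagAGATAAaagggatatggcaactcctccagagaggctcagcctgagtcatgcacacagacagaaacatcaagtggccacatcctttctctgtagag
Gp1ba, chr11:70638872-70639121, plus strand: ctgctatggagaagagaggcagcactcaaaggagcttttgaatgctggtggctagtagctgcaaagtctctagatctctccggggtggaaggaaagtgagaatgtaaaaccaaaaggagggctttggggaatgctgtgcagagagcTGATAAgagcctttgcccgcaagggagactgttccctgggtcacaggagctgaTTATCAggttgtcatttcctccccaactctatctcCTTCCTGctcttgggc
Gp5, chr16:30310782-30311031, minus strand: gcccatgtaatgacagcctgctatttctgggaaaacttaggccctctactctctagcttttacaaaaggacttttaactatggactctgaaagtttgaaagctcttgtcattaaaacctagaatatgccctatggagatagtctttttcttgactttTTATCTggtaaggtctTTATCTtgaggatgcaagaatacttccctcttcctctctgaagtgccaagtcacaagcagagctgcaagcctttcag

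The Ppbp window held TATAAA at 2 places, with its opening letter 30 and 8 bases before the start, and no GATA or ETS word. The Pf4 window held none of the words searched. In the F2rl2 window AGATAA began 95 bases before the start. The Gp1ba window held a GATA word at 104 bases and a second on the opposite strand at 51 bases, and the ETS word CTTCCTG at 16 bases. The Gp5 window held TTATCT at 93 and at 77 bases before the start. A match of letters is a description and no sign of binding, and a window without a match lacks only these letters.

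Windows could be matched for 25 of the 30 megakaryocyte and platelet genes and for 72 of the 100 most abundant genes, some with more than 1 start. GATA words stood in 8 of 26 windows of the megakaryocyte and platelet list, or 30.8%. The share was 16.6% over all 32851 windows, 9.66% over windows of genes at 1 TPM or more, 19.96% over those of genes under 1 TPM, and 12.5% over the 16 windows of a macrophage and monocyte list. The genes of the 8 windows were F2rl2, Gp1ba, Gp5, Mmrn1, P2rx1, Clec1b, Gp6 and Mpig6b. ETS words stood in 7.69% of the windows of the megakaryocyte and platelet list, against 17% of all windows and 25.8% of those of the 100 most abundant genes. TATAAA stood in 11.5% of the list's windows and in 7.59% of all windows. These shares are counts in fixed windows, and no test was made of them.

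The 5 markers of the lineage were all among the 100 most abundant genes. Ppbp (chromosome 5, 90768518 to 90770063, plus strand) had 49803, 56048 and 45807 TPM in libraries 1, 2 and 3, from 420964, 456097 and 430047 counts. It alone made 4.98%, 5.61% and 4.58% of the TPM of the libraries. Pf4 was at rank 3 with 15907, 17917 and 21653 TPM. The order of the libraries was not shared by these neighbours: Ppbp was lowest and Pf4 highest in library 3. The ratio of Ppbp to Pf4 was 3.13 in libraries 1 and 2 and 2.12 in library 3.

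The integrin chains of the fibrinogen receptor were steadier. Itgb3, the beta 3 chain, ranked 7 with 6949, 7664 and 7026 TPM. Itga2b, the alpha IIb chain by which megakaryocytes are often sorted as CD41, ranked 16 with 4177, 4429 and 4274 TPM. Their ratio was 1.66, 1.73 and 1.64, a spread of 0.0454 around a mean of 1.68. Vwf, the adhesive protein stored in alpha granules, ranked 98 with 1148, 1221 and 1229 TPM. Itga2b had the smallest range of the 30 genes, with its highest library 1.06 times its lowest.

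The receptor complex for von Willebrand factor was present with all of its chains. Gp1ba, the chain that binds the ligand, had 2084, 2130 and 1934 TPM. Gp9 had 3275, 3447 and 2819 TPM, and Gp5 had 2010, 2086 and 1866 TPM. Gp1bb, the partner bound to Gp1ba, had 1057, 1181 and 1302 TPM. Gp1ba, Gp9 and Gp5 were each lowest in library 3, where Gp1bb was highest. The ratio of Gp1ba to Gp5 stayed at 1.04, 1.02 and 1.04, while that of Gp1ba to Gp1bb was 1.97, 1.80 and 1.49.

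Some other platelet receptors were lower than these chains, but F2rl2 and Treml1 had higher means than Gp1ba and Gp5. The lower ones named here lie outside the naming rule given under the processing. They were chosen after their values were seen, as members of the megakaryocyte and platelet list. Gp6, the collagen receptor, had 490, 584 and 482 TPM. Clec1b, the receptor for podoplanin, had 703, 770 and 679 TPM. P2ry12, a receptor for ADP and the target of the drug clopidogrel, had 202, 217 and 122 TPM and the widest range of the 30, 1.78 times from library 3 to library 2. No gene of the list differed more than 2-fold between any library and both others. Few genes of such levels varied that much. The highest library was over 2 times the lowest in 45 of 1539 genes at 100 to 1000 TPM. The same held for 3 of 119 genes at 1000 TPM or more.

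Alpha granule cargo made up a large part of the RNA. A list of 22 cargo genes, 6 of them shared with the megakaryocyte and platelet list, summed to 90781 ± 5572 TPM, 9.08% of the total, and all 22 stood above 1 TPM. Thbs1, which encodes thrombospondin and is released when platelets are activated, had 9944, 10757 and 9500 TPM. F5, coagulation factor V, had 1943, 2186 and 1867 TPM. Mmrn1, the carrier protein of factor V, had 1328, 1637 and 1483 TPM. Sparc, a matrix protein that fibroblasts and endothelial cells also make, was the cargo gene past 2-fold below both others in library 3 (1 of 22, against 2.66% of all genes compared), with 40.6, 60.1 and 19.0 TPM; it too was named after its values were seen.

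The cytoskeleton came next. Of 36 actin and tubulin cytoskeleton genes, 17 were among the 100 most abundant and none was past 2-fold in any library. Over all genes compared, 0.76% to 2.66% stood past 2-fold above or below both others in a given library. Tmsb4x, thymosin beta 4, which holds free actin, ranked 2 with 20099, 22306 and 21384 TPM. Tubb1, the beta tubulin of the platelet coil, had 5406, 4880 and 3081 TPM and was lowest in library 3. Tuba4a, an alpha tubulin abundant in platelets, had 3369, 3469 and 2905 TPM. Tln1, talin, which switches integrins on, had 2675, 2775 and 2690 TPM, and Fermt3, kindlin-3, its partner in that step, had 4064, 4265 and 3799 TPM. Myh9, the motor protein non-muscle myosin heavy chain, had 1820, 1878 and 1849 TPM.

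Among the signalling genes, Plek, pleckstrin, a target of protein kinase C in platelets, ranked 9 with 6185, 7452 and 6478 TPM. Rap1b, the small GTPase upstream of integrin activation, ranked 10 with 5607, 6524 and 5152 TPM. Slc6a4, the transporter by which platelets load serotonin, had 2616, 2684 and 2429 TPM. Alox12, platelet 12-lipoxygenase, had 2649, 2618 and 2233 TPM, and Treml1, an alpha granule receptor, had 3321, 3442 and 2906 TPM. Their coefficients of variation, the SD as a share of the mean, lay between 5.13% (Slc6a4) and 12.1% (Rap1b).

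**Figure D1:**
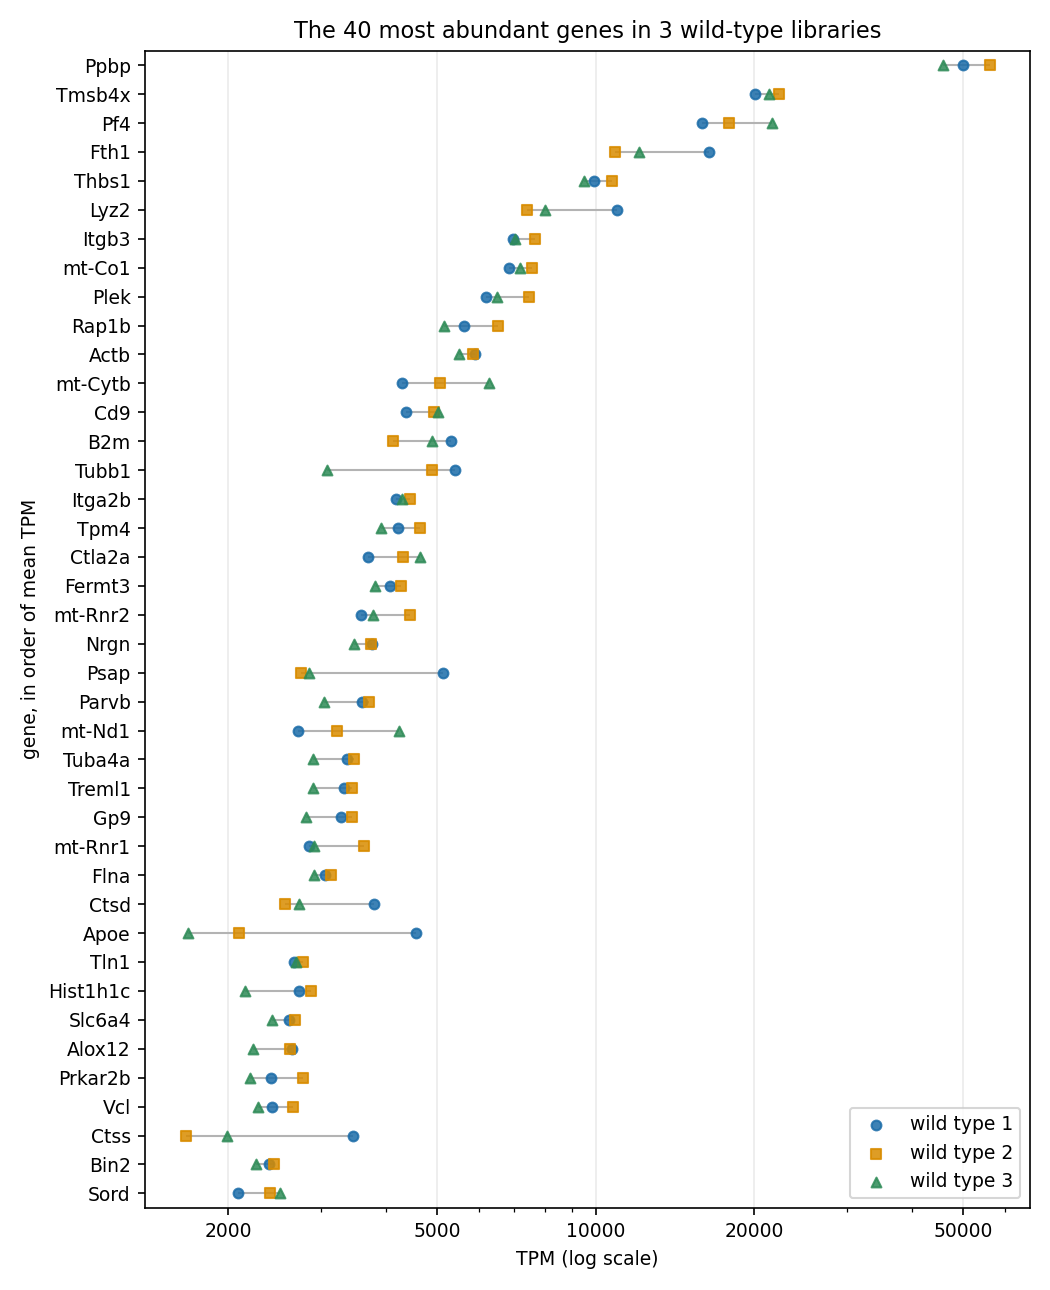
TPM on a log scale (horizontal axis) of the 40 genes with the highest mean in the 3 wild-type libraries, in order of that mean, with 1 point for each library and a line from lowest to highest. Ppbp stands apart at the top with 45807 to 56048 TPM, and the widest lines are those of Apoe (1676 to 4549 TPM), Ctss, Psap and Tubb1.

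The libraries were dominated by few genes. The gene at the top held 5.06 ± 0.516% of all TPM, the top 10 held 14.9 ± 0.515%, the top 100 held 34.8 ± 1.04% and the top 1000 held 67.3 ± 0.95%. The 335 most abundant genes made 50% of the RNA by this measure. Of the top 100, 16 were on the megakaryocyte and platelet list, 9 on the cargo list, 17 on the cytoskeleton list and 4 on the macrophage list. Lists overlap, and 36 of the 100 were on at least 1 of the megakaryocyte, cargo and cytoskeleton lists, while 47 were on none of the 36 lists. Mitochondrially encoded genes gave 8 of the 100, led by mt-Co1, a subunit of cytochrome c oxidase, with 6833, 7577 and 7190 TPM. Of 37 such genes 20 had no count in any of the 3 libraries, mt-Co2, mt-Co3 and mt-Atp6 among them. Reads that fit several places were not counted, and the part of this in the missing counts was not tested. The order and number of mitochondrial genes here are therefore uncertain. The ranking was steady between libraries: 88 genes were in the top 100 of every library.

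Length matters for the order. Without division by length, in CPM, the top gene was Thbs1 with 18139 ± 866 CPM, ahead of Ppbp with 16237 ± 1401 and Itgb3 with 12632 ± 549, and Vwf moved from rank 98 to rank 10. The top 100 by TPM and by CPM shared 66 genes. Vwf is a long message and Ppbp a short one, so comparisons of level between genes are made in TPM only.

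The transcription factors of megakaryocytes ranged from 904 TPM (Nfe2) to 1.51 TPM (Erg) on average. All 22 genes of that list stood above 1 TPM, their sum was 4420 ± 178 TPM, and none was past 2-fold in any library. Such differences were few over all genes compared too, at 0.76% to 2.66% for a given library and direction. Nfe2, which drives platelet release, was the highest with 933, 995 and 783 TPM. Gata1, the regulator shared by red cells and megakaryocytes, had 739, 763 and 671 TPM, and its cofactor Zfpm1 (FOG-1) had 311, 341 and 443 TPM. Gata1 was 15.8 ± 0.844 times Gata2, the earlier GATA factor, which had 48.6, 45.5 and 43.5 TPM. Gata2 varied less between the libraries than Zfpm1 did.

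Tal1, the gene called Scl in the labels, had 393, 448 and 371 TPM. Its relative Lyl1 had 346, 325 and 261 TPM. These are the genes that the other groups of the study lack, and both were measured in every wild-type library, Tal1 by 13428, 14745 and 14079 counts and Lyl1 by 4865, 4396 and 4079. Fli1, an ETS factor of the lineage, had 259, 294 and 262 TPM, and Runx1 had 32.2, 37.1 and 44.6 TPM. Erg, an ETS factor of blood stem cells and endothelium, was the lowest of the 22 with 1.85, 1.54 and 1.13 TPM from 50, 40 and 34 counts.

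Genes of red cells split. Of 18 measured erythroid genes, 9 reached 1 TPM, and the list summed to 926 ± 42.0 TPM. Epb41, a protein of the membrane skeleton, had 279, 298 and 270 TPM. Epor, the erythropoietin receptor, had 220, 228 and 200 TPM, and Sptb, beta spectrin, had 98.3, 112 and 113 TPM. Those genes have roles outside red cells or in the shared progenitor. Defining red cell genes were near 0: Klf1, the master regulator of red cells, had 2, 0 and 4 counts. Alas2, which starts heme synthesis in red cells, had 1, 0 and 4 counts, and Slc4a1, the anion exchanger band 3, had 2, 0 and 0.

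Globin messages were of the adult kind more than the embryonic kind. The 4 measured adult globin genes summed to 2043, 1903 and 1661 TPM, and the 4 embryonic ones to 204, 217 and 347 TPM. The embryonic sum includes Hbb-bh0, annotated as a pseudogene of 129 bases, with 26.8, 42.3 and 41.1 TPM from 27, 41 and 46 counts. Hbb-bt, an adult beta globin, had 1023, 1035 and 969 TPM. Hba-a1, an adult alpha globin, had 919, 773 and 592 TPM. Hba-a2 and Hbb-bs, near-identical copies of these, had means of 49.6 and 49.4 TPM, and since reads that fit several places were not counted, the split between copies is uncertain. Hbb-y, an embryonic beta globin of primitive red cells, had 176, 174 and 303 TPM and was highest in library 3. Hbb-bh1, the other main embryonic beta globin, had 7, 7 and 16 counts, and Hba-x, the embryonic alpha globin, had 2, 0 and 0 counts. Hbb-bt was 5.82, 5.97 and 3.20 times Hbb-y.

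Macrophage messages were the most abundant of another cell type. Of 23 macrophage and monocyte genes, 22 reached 1 TPM, and the list summed to 23023, 13950 and 14576 TPM. Lyz2, lysozyme of macrophages and granulocytes, had 10974, 7405 and 8001 TPM and was the highest member of the list. Ctss, a lysosomal protease of antigen-presenting cells, had 3462, 1661 and 1993 TPM. Ctsb, another lysosomal protease, had 2827, 1543 and 1588 TPM. In these bulk samples, fewer cells of a type and less RNA per cell cannot be told apart.

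Other blood cell types were lower. The 16 neutrophil genes all reached 1 TPM and summed to 2536, 2227 and 1272 TPM, led by S100a9 with 1277, 1103 and 651 TPM. Dendritic cell genes summed to 796, 418 and 281 TPM, of which Cd74, the chain that guides MHC class II, gave 396, 189 and 128 TPM. B cell genes summed to 448, 196 and 166 TPM, with the antibody genes Igkc at 216, 77.6 and 88.0 TPM and Ighm at 170, 88.5 and 62.3 TPM. Library 1 was highest in each of these 3 sums. T and NK cell genes summed to 37.9, 26.9 and 8.76 TPM, of which Cd4 alone gave 29.8, 18.25 and 2.86 TPM. Of the 14 genes, 12 had a mean under 1 TPM. Cd3d, Cd3e and Cd3g, the defining chains of the T cell receptor complex, had means of 0.0471, 0.0761 and 0.0679 TPM. Of 16 genes of blood stem and progenitor cells, 13 reached 1 TPM. Slamf1 (CD150), which megakaryocytes share, had 362, 404 and 322 TPM. Kit, the stem cell factor receptor, had 2.92, 2.20 and 1.45 TPM and was named after its values were seen. Cd34, Spi1, Gata2, Mycn and Meis1 of that list had means between those of Slamf1 and Kit.

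Genes of vessel walls were mostly at low levels, with a median of 2.41 TPM, and the highest of them were genes that platelets share. The 20 endothelial genes summed to 878, 930 and 792 TPM. Pecam1, an adhesion molecule that platelets also carry, gave 386, 390 and 318 TPM of this, and Esam, likewise found on platelets, gave 332, 345 and 289 TPM. Cdh5, the cadherin that defines endothelium, had 10.5, 14.3 and 1.10 TPM. Tie1, Flt1 and Kdr of the same list were higher than Cdh5, with means of 59.05, 35.75 and 22.92 TPM. The 16 mesenchyme and fibroblast genes summed to 125, 164 and 90.9 TPM.

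The embryo tissue genes that reached 1 TPM were few. Afp, alpha-fetoprotein of yolk sac endoderm and fetal liver, was the highest of all 83 with 7.08, 8.50 and 8.15 TPM from 186, 215 and 238 counts. Cyp26a1, a retinoic acid degrading enzyme of the tail bud, had 9.03, 8.86 and 4.95 TPM, and Tubb3, a neuronal beta tubulin, had 5.83, 7.27 and 3.83 TPM. Of maternal decidua genes, Bmp2 was the highest with 19.5, 16.7 and 35.6 TPM. Xist, which is expressed from the inactive X chromosome in females, had 115, 111 and 100 TPM, while Uty, a gene of the Y chromosome, had 0, 0 and 1 count.

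**Figure D2:**
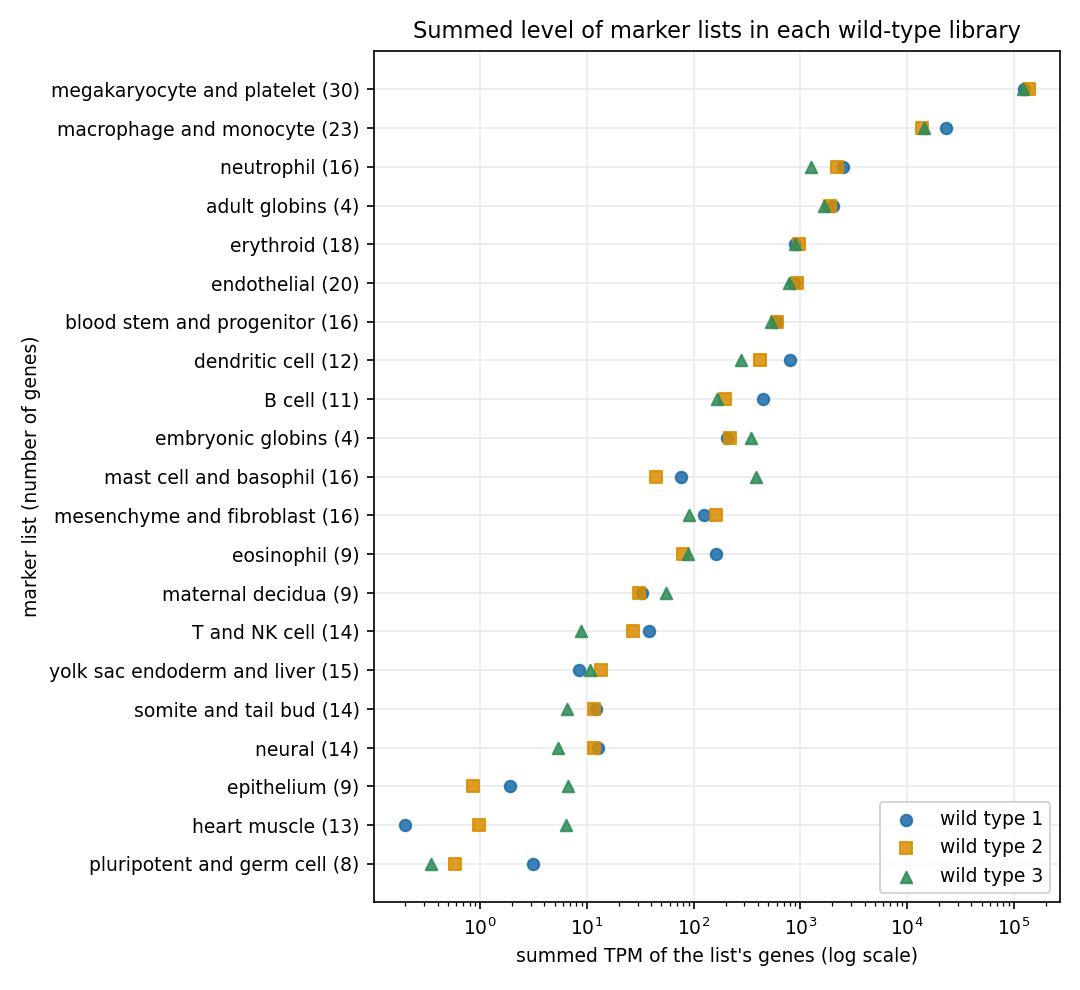
Summed TPM on a log scale (horizontal axis) of marker lists in each wild-type library, in order of the mean, with the number of measured genes in brackets and 1 point for each library; trophoblast is left out because its sum was 0 in library 3. The megakaryocyte and platelet list lies at 123070 to 137667 TPM and the macrophage list at 13950 to 23023 TPM, while the highest point of the embryo tissue lists is 13.5 TPM (yolk sac endoderm and liver).

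The spread between libraries fell with abundance and then levelled. The median coefficient of variation was 26.2% for the 5791 genes at 1 to 10 TPM, 11.9% for the 6369 at 10 to 100 TPM, 9.45% for the 1539 at 100 to 1000 TPM and 9.27% for the 119 at 1000 TPM or more. Counting error alone, taken from the mean count, would give 11.1% in the lowest of these classes and 0.549% in the highest. The median spread of abundant genes was thus larger than counting error. A common biological coefficient of variation of 22.1% was estimated by edgeR over 13493 genes with no group term. The megakaryocyte and platelet list had a median coefficient of variation of 9.58%.

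Among the 100 most abundant genes, the steadiest was Ppp1ca, a catalytic subunit of protein phosphatase 1, with 1457, 1477 and 1472 TPM, a coefficient of variation of 0.693%. Myh9 (1.56%) and Tln1 (1.99%) were among the 6 steadiest. The least steady was Apoe, apolipoprotein E, with 4549, 2099 and 1676 TPM (55.9%). Ctss (40.4%), Ctsb (36.7%) and Psap, the precursor of lysosomal saposins, followed, and Psap had 5126, 2756 and 2852 TPM. These 4 genes of lysosomes and lipid handling, all abundant in macrophages, were highest in library 1, as was the macrophage list sum. Ftl1, ferritin light chain, had 1023, 941 and 1754 TPM and was highest in library 3, while Gpnmb, a lysosomal membrane protein of macrophages, had 1622, 777 and 1351 TPM.

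**Figure D3:**
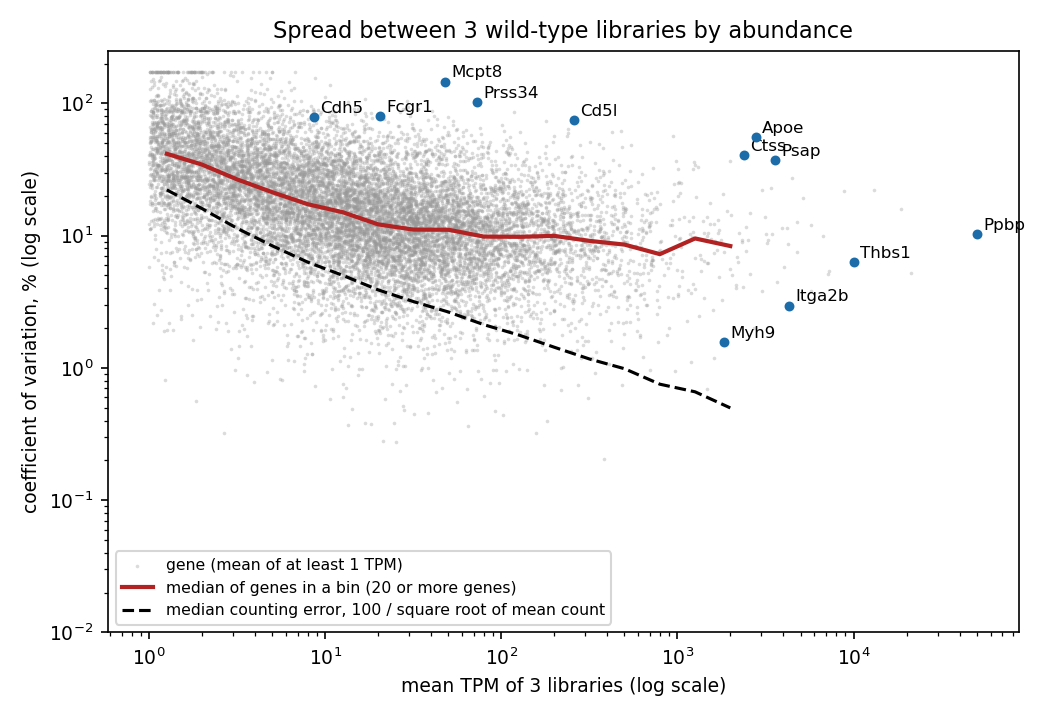
Coefficient of variation over the 3 wild-type libraries in percent (vertical axis, log scale) against mean TPM (horizontal axis, log scale) for genes with a mean of at least 1 TPM; the solid line is the median in bins of 20 or more genes and the dashed line the median counting error. Itga2b and Myh9 lie below the median line and Apoe (55.9%), Ctss and Psap above it at similar abundance.

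Differences past 2-fold between libraries were counted on log2(TPM + 0.5) over the 13818 genes; with 1 library on each side there is no test and no p-value. Libraries 1 and 2 differed past 2-fold in 721 genes (5.22%), libraries 1 and 3 in 1366 (9.89%) and libraries 2 and 3 in 1132 (8.19%). Library 1 stood above both others in 202 genes (1.46%) and below both in 105 (0.76%). Library 2 stood above both in 120 (0.868%) and below in 176 (1.27%). Library 3 stood above both in 242 (1.75%) and below in 368 (2.66%). Of the 1000 most abundant genes, 6 stood above and none below in library 1, none either way in library 2, and 3 above and 5 below in library 3. Many of the genes were small: 39 of the 202 above in library 1 and 44 of the 120 above in library 2 were under 200 bases long, where few reads set the level. The share of such short genes over all genes compared is not given here.

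At the 2-fold limit, a log2 gap of 1, the genes just inside and just outside were Arl5c (1.00) and C1qa (0.996) above in library 1, Aldh1a7 (1.00) and Serpina3f (0.990) below in library 1, Enpp2 (1.06) and Per2 (0.983) above in library 2, and Rpl36 (1.05) and Batf (0.993) below in library 2. For library 3 they were Csf1 (1.01) and Adamtsl5 (0.9998) above, and Tmem176b (1.00) and Rab3il1 (0.996) below.

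Library 1 was higher in genes of macrophages and antigen-presenting cells. The macrophage list had 5 of its 22 genes past 2-fold above both others in library 1, where the background was 1.46%, and all 22 were highest there, against 30.31% of all genes compared. Its median log2 difference from the mean of the other two libraries was 1.06, against -0.02 over all genes compared. Fcgr1, a high-affinity receptor for antibodies, had 39.2, 11.4 and 10.6 TPM. C1qb, a chain of complement C1q made by macrophages, had 808, 359 and 259 TPM, and Apoe was the gene of the top 100 past 2-fold in library 1. The medians of the B cell list (1.38) and the dendritic cell list (1.03) were also high in library 1, with 3 of 7 and 2 of 10 genes past 2-fold. H2-Ab1, an MHC class II chain, had 96.8, 39.8 and 30.7 TPM. Ifi27l2a, induced by interferon, had 68.1, 20.98 and 11.2 TPM, and Ly6a, the stem cell antigen Sca-1 that interferon also induces, had 17.3, 5.19 and 3.45 TPM. On a list of 13 interferon-induced genes, only Ifi27l2a stood past 2-fold above in library 1 (1.46% of all genes compared). In that list 7 genes were highest in library 1 (30.31% of all genes) and 5 in library 3 (44.28%). The sum of the list was highest in library 3.

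Of the 202 genes above in library 1, 14 were antibody gene segments. The share of such segments over all genes compared is not given here. Igkj3, Igkv15-103, Ighj4 and Iglc3 were among the 8 named genes furthest above, and the microRNA gene Mir1968 was another. Below both others in library 1, 47 of the 105 genes were pseudogenes and 22 were protein-coding. Mug1, a murinoglobulin protease inhibitor, had 0.777, 7.43 and 14.2 TPM. Tnfsf4, the ligand OX40L, had 1.53, 5.49 and 10.5 TPM, and Eda2r, a receptor of the TNF family, had 1.89, 6.57 and 8.95 TPM.

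Library 2 had 28 protein-coding genes above and 39 below both others, fewer in sum than library 1 (112 and 22) or library 3 (110 and 263). Above in library 2 were Mmp13, a collagenase, with 11.2, 30.8 and 3.80 TPM, and Dcn, the fibroblast proteoglycan decorin, with 12.2, 29.3 and 9.30 TPM. Lpar6, a receptor for lysophosphatidic acid, had 12.7, 30.5 and 9.14 TPM, and Ccl7, a monocyte chemokine, had 3.52, 9.64 and 3.17 TPM. The mesenchyme and fibroblast list had a median of 0.89 in library 2, with 1 of 14 genes past 2-fold (0.868% of all genes compared) and 11 highest there (25.41% of all genes compared). Below in library 2, Ogfod3 had 7.05, 1.93 and 8.20 TPM. The mast cell and basophil list had 3 of 8 genes past 2-fold below (Mcpt8, Prss34 and Fcer1a), against 1.27% of all genes compared. Fcer1a, with 7, 1 and 117 counts, and Cd200r3 are among the 8 only through library 3, so library 3 partly set this share.

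Library 3 was higher in genes of basophils and mast cells. The whole list summed to 77.0, 44.7 and 383 TPM. Of its 8 genes at 1 TPM or more, 7 stood past 2-fold above both others, where the background was 1.75%. Fcer1a (0.90, 0.13 and 13.5 TPM) and Cd200r3 (0.81, 0.51 and 2.76 TPM) passed that filter only through library 3. The other 8 genes lay under 1 TPM, so the filter itself favours a high count in library 3. Mcpt8, a protease of basophils, had 10.8, 4.36 and 129 TPM from 72, 28 and 954 counts. Prss34, another basophil protease, had 41.9, 18.6 and 157 TPM, and Cpa3, a carboxypeptidase of mast cells and basophils, had 14.2, 11.9 and 56.5 TPM. Fcer1a, the binding chain of the IgE receptor, had 7, 1 and 117 counts. Library 3 was the high one and library 2 the low one for Mcpt8, Prss34, Cpa3 and Fcer1a. Tpsab1, a mast cell tryptase, had no count in any of the 3 libraries.

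Of the 242 genes above both others in library 3, 4 more are named here, by the size of their gap. Cd69, an early activation marker of leukocytes, had 5.32, 7.16 and 37.7 TPM. Cxcl2, a chemokine for neutrophils, had 10.7, 10.1 and 50.04 TPM, and Cxcl10, a chemokine induced by interferon, had 6.20, 4.79 and 29.5 TPM. Hspb8, a small heat shock protein, had 19.5, 20.5 and 81.5 TPM. Nfkbia, the inhibitor that NF-kappa B induces, was named after its values were seen and had 137, 132 and 331 TPM. Of the 16 immediate early genes, which respond quickly to stimulation, 11 were highest in library 3, against 44.28% of all genes compared, and 1, Egr1, stood past 2-fold above (1.75% of all genes) with 19.97, 23.8 and 71.2 TPM. The median of that list in library 3 was 0.41, against 0.06 over all genes compared. The heat shock list had a median of 0.30 there, and Hspa1a and Hspa1b, the inducible heat shock genes, were under 1 TPM in every library. These 2 genes are close copies, and reads that fit several places were not counted, so their low values do not show whether they were induced.

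Proliferation genes were also highest in library 3. The 25 genes of that list all reached 1 TPM and summed to 686, 716 and 1057 TPM, 24 were highest in library 3, and 3 stood past 2-fold. Over all genes compared, 44.28% were highest in library 3 and 1.75% stood past 2-fold above there. The median in library 3 was 0.89. Mki67, the marker Ki-67 of cycling cells, had 36.7, 38.4 and 76.7 TPM. Ccnd3, cyclin D3, the most abundant of the list, had 212, 223 and 201 TPM and was lowest there.

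Genes below both others in library 3 included those of vessel walls and of resident macrophages. The endothelial list had 8 of 17 genes past 2-fold below, where the background was 2.66%, and the mesenchyme and fibroblast list had 5 of 14. Igfbp3, a binding protein of insulin-like growth factors, had 22.4, 27.1 and 0.590 TPM from 548, 637 and 16 counts. Serping1, the C1 inhibitor, had 32.1, 46.2 and 1.64 TPM. Mcam, an adhesion molecule of vessels (CD146), had 9.18, 11.8 and 0.276 TPM from 240, 296 and 8 counts, and Mgp, matrix Gla protein of vascular and cartilage cells, had 38.3, 50.01 and 2.82 TPM. Cdh5, given above, had 344, 451 and 40 counts. Within the same lists, 4 endothelial and 3 mesenchyme genes were highest in library 3. They include Tie1, a receptor of endothelium and blood progenitors, with 50.2, 54.7 and 72.2 TPM, Flt1, a receptor for VEGF, with 23.9, 31.6 and 51.8 TPM, and Col1a1, a collagen chain, with 12.4, 8.54 and 23.01 TPM.

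The macrophage list had 4 of 22 genes past 2-fold below in library 3, against 2.66% of all genes compared. Vsig4, a complement receptor of tissue macrophages, had 18.4, 10.5 and 0.389 TPM from 213, 117 and 5 counts. Cd5l, Fcna and Vcam1 were named after their values were seen. Cd5l, a scavenger protein of macrophages, had 435, 284 and 52.6 TPM. Fcna, ficolin A, had 57.3, 29.5 and 2.10 TPM, and Vcam1, the adhesion molecule of endothelium and of macrophages that take up red cells, had 71.0, 48.3 and 5.41 TPM. Lyz2, in contrast, was lowest in library 2. The neutrophil list had 5 of 16 and the B cell list 4 of 7 genes past 2-fold below in library 3.

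**Figure D4:**
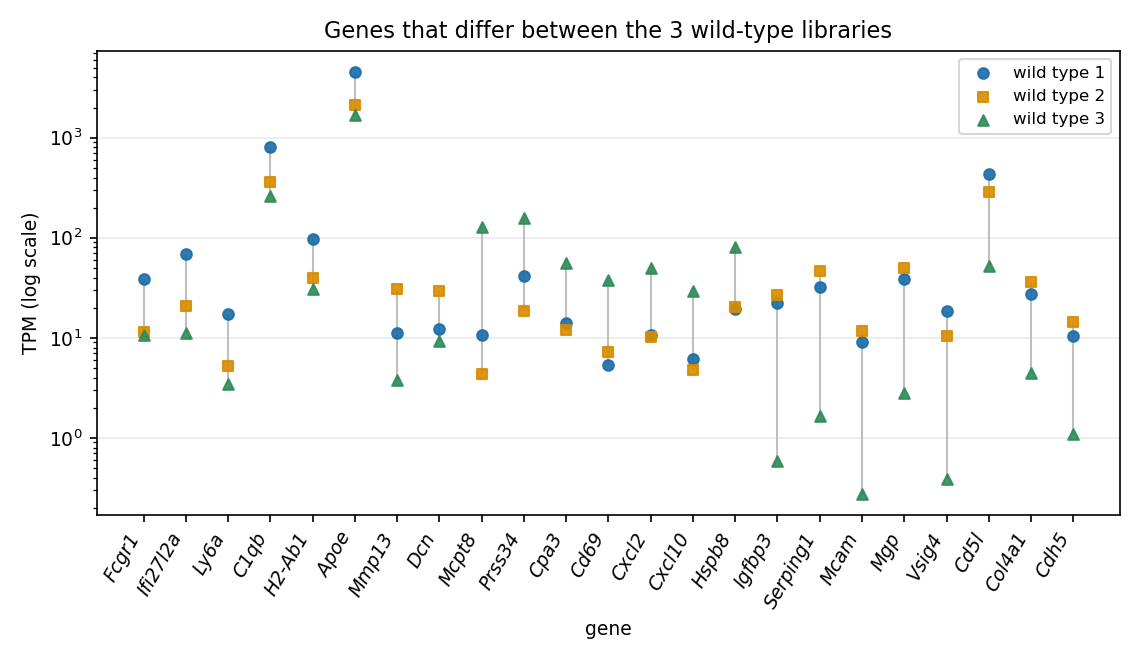
TPM on a log scale (vertical axis) of genes that differ between the 3 wild-type libraries (horizontal axis), with 1 point for each library and a line from lowest to highest. From Fcgr1 to Apoe library 1 is highest, Mmp13 and Dcn are highest in library 2, from Mcpt8 to Hspb8 library 3 is highest, with Mcpt8 at 129 TPM against 10.8 and 4.36, and from Igfbp3 on library 3 is lowest.

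The lists of the lineage differed less between the libraries than the macrophage, dendritic cell, B cell, neutrophil, and mast cell and basophil lists. This was not particular to the lineage. The adult globin list also differed little, and the erythroid list had medians of -0.02, 0.12 and -0.10 in libraries 1, 2 and 3. The median log2 difference of the megakaryocyte and platelet list was -0.02, 0.13 and -0.12 in libraries 1, 2 and 3, and that of the cytoskeleton list was 0.02, 0.03 and -0.02. The macrophage list was at 1.06 in library 1, and at -0.24 and -0.89 in libraries 2 and 3. Library 2 had the fewest counts and the highest median of the megakaryocyte and platelet list, and library 3 the most counts and the lowest. The part of other cell types, of RNA quality and of handling in the differences between the libraries was not tested.

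**Figure D5:**
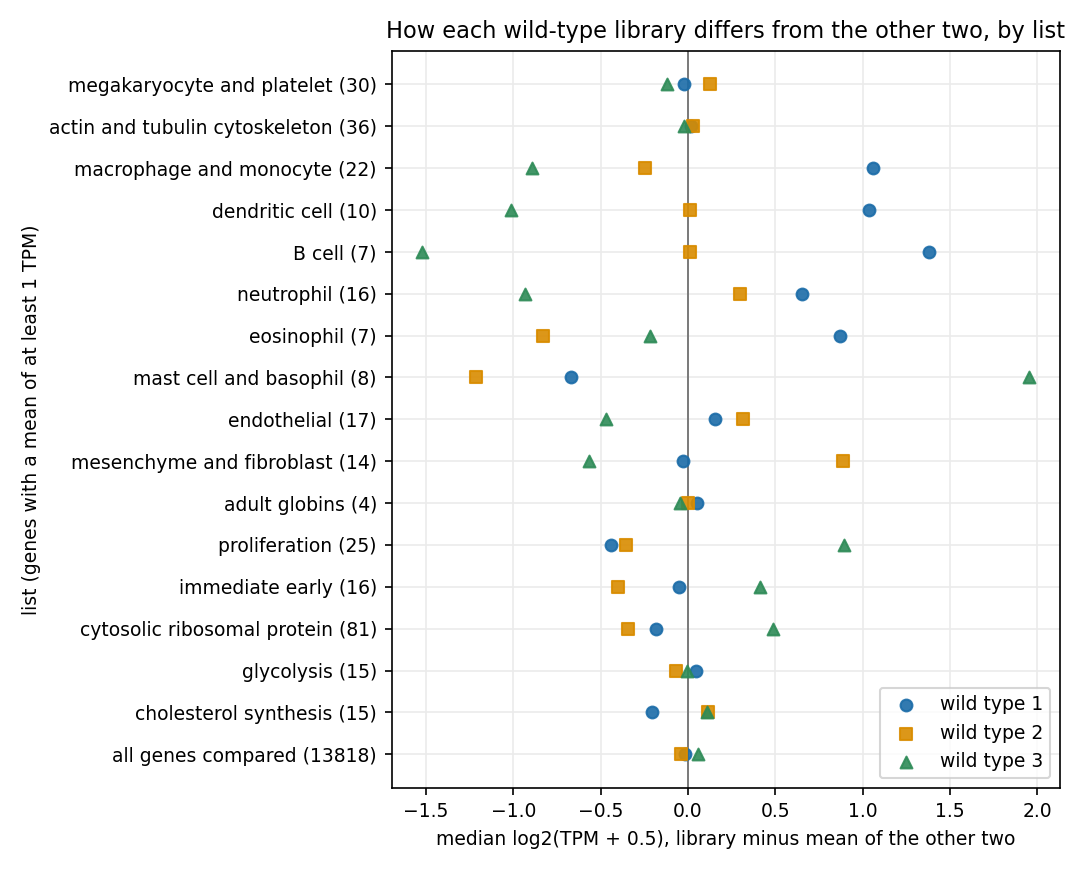
Median over the genes of each of 16 lists, and over all genes compared, of log2(TPM + 0.5) in 1 wild-type library minus the mean of the other two (horizontal axis), with the number of genes in brackets and 1 point for each library. The megakaryocyte and platelet points lie between -0.12 and 0.13, the macrophage points between -0.89 and 1.06, and the mast cell and basophil point of library 3 lies furthest to the right of the lists drawn at 1.96.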

How the data were processed

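RNA of 3 wild-type mouse libraries, pools of embryos at embryonic day 9.5 per the labels, was measured by RNA-seq. The values deposited by the authors are unnormalized read counts, and the columns of the 3 libraries were found by their labels. The submitters' processing notes name STAR 2.5.2b, featureCounts, Subread 1.5.2, limma and the build GRCm38. Per the file headers, reads were counted on the reverse strand against Ensembl 87 gene models, and reads that fit several places were not counted; near-identical copies therefore lose reads. Read length, pairing and alignment options: not given in the sources used here.

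From the deposited counts and the deposited gene length (another column of the table, in bases), TPM was computed here, and 49326 of 49671 gene IDs were matched to symbols. A gene past 2-fold differs by more than 1 in log2(TPM + 0.5), among genes with a mean of at least 1 TPM. Only 1 group of 3 libraries is described, so no test was made and no p-value is given. Total counts per library set the counting errors and the limit of 3 counts. The calculation of TPM and of the biological coefficient of variation (edgeR 4.0.16 under R 4.3.3) was tested on simulated data. The table was read with pandas 2.3.3 under python 3.11.15. DESeq2 1.42.0 gave size factors for an alternative scaling. Other alternatives were the filter, the pseudocount, the length correction and each library left out.

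The members and the 36 lists of genes were chosen with earlier results of these data known, and 3 written symbols (Hbb-b1, Hbb-b2 and Ahsp) matched no gene. Genes were named by a rule: the 40 most abundant, up to 5 of the most abundant of each list and those of its opening 3 under 1 TPM, up to 8 genes furthest above or below both others in each library at a mean of at least 5 TPM (predicted genes and pseudogenes were counted only), and the 6 most and 6 least variable of the 100 most abundant. Any gene named outside this rule was chosen after its values were seen. Promoter windows were taken from RefSeq (GRCm38.p6). The values of 2 list members are not reported here.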

Additional observations from a re-analysis of the deposited data

How the results depend on the processing

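Of 114 values computed under alternatives, 74 stayed within the spread between the libraries or within 1.5 times the count, and 40 moved. The 74 include 4 values for each library left out. There a mean can hardly move past that spread, and the pair count compares the same 2 libraries, so these values say little on stability. Without division by length, in CPM, the share of the top 100 was 28.3% and the sum of the megakaryocyte and platelet list was 98572. The counts of genes past 2-fold depended on the treatment of low values. At a mean of at least 5 TPM, 203, 579 and 359 genes differed between libraries 1 and 2, 1 and 3, and 2 and 3; 82 stood above and 26 below both others in library 1, 19 and 41 in library 2, and 83 and 123 in library 3. With no filter these were 1640, 2356 and 2132 genes for the pairs, 537 and 162 in library 1, 343 and 271 in library 2, and 594 above in library 3. With a pseudocount of 2 TPM they were 341, 722 and 598 for the pairs, then 108 and 35, 61 and 61, and 135 and 148. Protein-coding genes alone, an alternative chosen after seeing the data, gave 281, 874 and 564 for the pairs, 112 and 22 in library 1, 28 and 39 in library 2, and 110 above in library 3. Genes with at least 20 counts in 1 library, also chosen after seeing the data, gave 397 for libraries 1 and 2, 38 below in library 1, and 38 above and 71 below in library 2. Libraries 1 and 3 remained the pair with the most such genes, and libraries 1 and 2 that with the fewest, under each of the 4 settings above for which all pairs are given. Scaling by TMM or by DESeq2 size factors moved no count by over 1.5 times. Of 264 named genes, 149 moved by more than their SD without division by length and 40 with 200 bases taken off each length; leaving out 1 of 3 libraries cannot move a mean by more than its SD. With 1 library left out, a gene cannot stand apart from both others, so those counts were not recomputed. No paired analysis was possible because a single group of libraries is described and no test was made.

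The limits are these. With 3 libraries of 1 group, the SD rests on few values and no difference between libraries was tested. Of the genes past 2-fold many are short or rest on few counts, where counting error alone is 11.1% at 1 to 10 TPM. Genes with near-identical copies are under-counted.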

Other observations

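Several gene groups were not described, or only in part, above. The 15 glycolysis genes summed to 5931 ± 107 TPM with the highest library 1.04 times the lowest. Among them were Slc2a3, a glucose transporter of platelets, at 1786, 1864 and 1506 TPM and Pkm, pyruvate kinase, at 1173, 1249 and 1275 TPM; 15.3% of the exon bases of Pkm are shared with another gene on the same strand. The 15 cholesterol synthesis genes summed to 1906 ± 120 TPM, with 12 of 15 lowest in library 1, against 34.04% of all genes compared. The 5 genes of iron storage and heme breakdown summed to 18050, 12226 and 14175 TPM, led by Fth1, ferritin heavy chain, with 16442, 10889 and 12073 TPM. MHC class I genes summed to 7664, 5788 and 6877 TPM and mitochondrially encoded genes to 25659, 30006 and 31227 TPM. The mitochondrial sums lack the genes without a count, mt-Co2 and mt-Co3 among them. The 13 interferon-induced genes summed to 1246, 1048 and 1418 TPM, with Ifitm3 at 877, 804 and 1133 TPM. The 9 eosinophil genes summed to 161, 80 and 88.8 TPM, led by Prg2 with 93.9, 47.8 and 67.5 TPM.

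Some genes that most cells express at high levels were low in the table, in which reads that fit several places were not counted. Gapdh, a glycolysis enzyme with many processed copies, had 5.98, 4.25 and 4.47 TPM, and Pkm was 258.5 ± 54.2 times Gapdh. Actg1, cytoplasmic gamma actin, had 23.3, 28.3 and 14.7 TPM, and Actb was 277.5 ± 85.9 times Actg1. Of 87 cytosolic ribosomal protein genes, 28 had a mean under 10 TPM. Their sum was 9206, 8493 and 12691 TPM, 72 of the 81 at 1 TPM or more were highest in library 3, against 44.28% of all genes compared, and their median log2 difference there was 0.49. Pseudogenes held 5.69%, 5.75% and 6.94% of TPM, and 4 of them were among the 100 most abundant genes: Gm7809 with 2162, 2238 and 2055 TPM, Gm29397 with 1581, 1810 and 1528, Tpt1-ps3 with 1506, 1572 and 1736, and Gm14303 with 1098, 1027 and 1817. These 4 were named after their values were seen.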
